A study of Rattus norvegicus with 24 samples.

Results

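Glycolysis breaks glucose down to pyruvate in the cytosol and gives ATP without oxygen. The 10 genes followed here encode enzymes along that route, and red cells, which have no mitochondria, depend on it for all their ATP, while activated neutrophils and macrophages are known to raise it. Hk1, Hk2 and Hk3 encode hexokinases, which trap glucose as glucose-6-phosphate. Gpi turns that into fructose-6-phosphate, and Pfkl is the liver-type subunit of phosphofructokinase, the main control point of the pathway. Aldoa splits the sugar, Gapdh and Pgk1 carry the oxidation and the first ATP-giving step, Eno1 makes phosphoenolpyruvate, and Ldha reduces pyruvate to lactate.

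The members were all array probes, controls left out, whose gene name equals one of these 10 symbols. That rule found 15 probes of 30367 on the array, for 10 of 25885 gene names. RNA from the blood of single rats had been hybridized on 24 two-color arrays against a common reference RNA, 4 arrays in each of 6 groups. The rats were male Sprague-Dawley animals, 8 weeks old at the start, and all of them were kept on a semi-synthetic diet for 6 weeks and fasted before blood was drawn from the heart under isoflurane. Group C-G0 had the plain diet and saline. C-G1 and C-G2 had saline and the same diet with oat beta-glucan of high (G1) or low (G2) molecular weight. Both beta-glucans were given at the same share of the diet by weight. Groups LPS-G0, LPS-G1 and LPS-G2 had the same 3 diets and E. coli lipopolysaccharide (LPS), injected into the tail vein at 10 mg/kg and again a week later, a model of inflammation of the small intestine. The time from the last injection to the blood draw was not given in the sources used here. The questions were what LPS did to these transcripts on the plain diet, and what each beta-glucan did in rats with LPS.

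Each value is the log2 ratio of the Cy3 over the Cy5 signal of a probe, so that 1 unit is a factor of 2 and 0 equals the reference pool. By the labels the rat RNA carried Cy3, while the study's methods state Cy5. The Cy3 signals lay farther from the median array than the Cy5 signals on 24 of 24 arrays, and all directions below rest on Cy3 being the rat. If the methods' dye were right, every sign would turn. Replicates 3 and 4 of LPS-G0 are LPS animals by their titles, while another label of theirs reads control. The arrays lay on 3 slides of 8, each with all 6 groups. The number of probes clearly brighter than background in Cy3 ranged from 7786 to 15385 over the arrays. In whole blood, fewer cells of a type and less RNA per cell cannot be told apart. Of the marker lists for blood cells, all 7 platelet and 8 of 10 erythroid genes could be tested, and 5 of 12 neutrophil genes. Heart muscle markers were mostly dim, and 1 of 7 could be tested.

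Of the 10 genes, 8 had a main probe (the brightest of a gene) well above background on 24 of 24 arrays in Cy3, so no gene among these 8 passed the filter through a single group. The exceptions were Hk2, the insulin-responsive hexokinase of muscle and fat, and Hk3, the hexokinase known from leukocytes. Hk2 was well above background in Cy3 on 1 of 24 arrays, in LPS-G1. Hk3 was so on 2 of 24 arrays, 1 in C-G1 and 1 in C-G2. In the reference channel, Hk2 passed on 14 and Hk3 on 12 of 24 arrays. No fold change is given for either gene. Of the 15 probes, 12 were tested.

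The array design places its probes on rat assembly rn4. The 2 Pfkl probes lie on chromosome 20, at chr20:11032161-11032220 and chr20:11032281-11032340 on the plus strand, and the first 30 bases of each are shown because the main difference below was measured with them. The design gives no position for the Hk1 probe. The 2 Gapdh probes printed whole cover 169 and 148 bases of genome with 60 bases of probe, at chr4:161282433-161282601 and chr4:161282760-161282907 on the minus strand, so each joins separate stretches of the genome, as across an intron. The design does not say whether a probe is in coding sequence or in an untranslated region.
Pfkl main probe, first 30 bases: atagacaagggtttctgagcttaccgatca
Pfkl other probe, first 30 bases: tgtggttggttgaaggatttgggggtctac
Hk1 probe, first 30 bases: aaacaacaccatcactggaatttccatcgc
Gapdh probe over an intron: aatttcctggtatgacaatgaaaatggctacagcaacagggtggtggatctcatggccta
Gapdh other probe over an intron: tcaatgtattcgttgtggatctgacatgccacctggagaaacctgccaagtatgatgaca

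Pfkl and Hk1 were the only genes among the 8 tested to pass in any of the 13 comparisons. Both were lower in LPS-rats fed the high-molecular-weight beta-glucan than in LPS-rats on the plain diet (LPS-G1 vs. LPS-G0). This is 2 of 8 tested genes, both lower and none higher, where 8.93% of all 10313 probes tested passed an adjusted p under 0.05 in limma, 8.39% as lower and 0.543% as higher. At an unadjusted p under 0.05 it was the same 2 genes, against 26.9% of all probes. None of the 8 genes passed with a 2-fold difference, as 0.989% of all probes did. The median difference of the 8 genes was 0.06, equal to that of all probes. In all other comparisons 0 of the 8 passed in limma.

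The Pfkl log2 ratios of the LPS-G0 rats were 0.32, 0.03, 0.49 and 0.31. Those of the LPS-G1 rats were -0.41, -0.22, -0.11 and -0.52. All 4 LPS-G1 rats lay below all 4 LPS-G0 rats, and groups that do not overlap were found for 2 of the 8 genes, Pfkl and Hk1, and for 21.9% of all probes. The difference was -0.60 (SE 0.15, 95% interval -0.92 to -0.29), a ratio of 0.658, with an adjusted p of 0.0289 in limma. The exact two-sided permutation test gave p = 0.0286, the smallest that 4 against 4 arrays allow. That value follows from the separation of the groups and adds nothing to it. The other Pfkl probe read 0.20, 0.33, -0.03 and 0.41 in LPS-G0 and 0.09, -0.37, -0.35 and -0.32 in LPS-G1. It differed in the same direction by -0.47 (SE 0.18) but with overlapping groups, and it did not pass (adjusted p = 0.102, limma). Within the 3 slides the difference of the main probe was -0.59, -0.66 and -0.83. These rest on 2 LPS-G0 arrays and 1 LPS-G1 array on slide 1, 1 and 2 on slide 2, and 1 and 1 on slide 3. Their sign follows from the separation of the groups.

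Hk1 read 0.22, -0.07, 0.05 and -0.24 in LPS-G0. It read -0.38, -0.49, -0.32 and -0.81 in LPS-G1, again below every LPS-G0 rat. The difference was -0.48 (SE 0.15, 95% interval -0.80 to -0.17), a ratio of 0.715, and its adjusted p of 0.0496 in limma lay just under the threshold. Within the slides, on these same few arrays, Hk1 differed by -0.45, -0.45 and -0.56.

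Both calls hung on single arrays and on the setting of the fit. Leaving out any of LPS-G0 replicates 1, 2 and 4 or LPS-G1 replicates 2, 3 and 4 ended the Pfkl call, with a difference between -0.53 and -0.69 and an adjusted p of up to 0.107 (limma). The Hk1 call was kept in 2 of 16 such fits, without C-G0 replicate 1 and without LPS-G1 replicate 1, and its difference ranged from -0.56 to -0.38 over the 16. Without LPS-G0 replicates 3 and 4, whose labels conflict, Pfkl differed by -0.49 (adjusted p = 0.169) and Hk1 by -0.57 (adjusted p = 0.127). Taking the Cy3 signal alone, no filter on dim probes or all 24 arrays in the fit ended both calls, and a fixed block for slide or a variance trend ended that of Hk1. The methods' own test, with Tukey's post-hoc comparison, was run on the tested probes that had a value on every array of the fit. It called 0 of the 8 genes and 1 of these probes after adjustment, and 2 and 1233 before it.

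**Figure D1:**
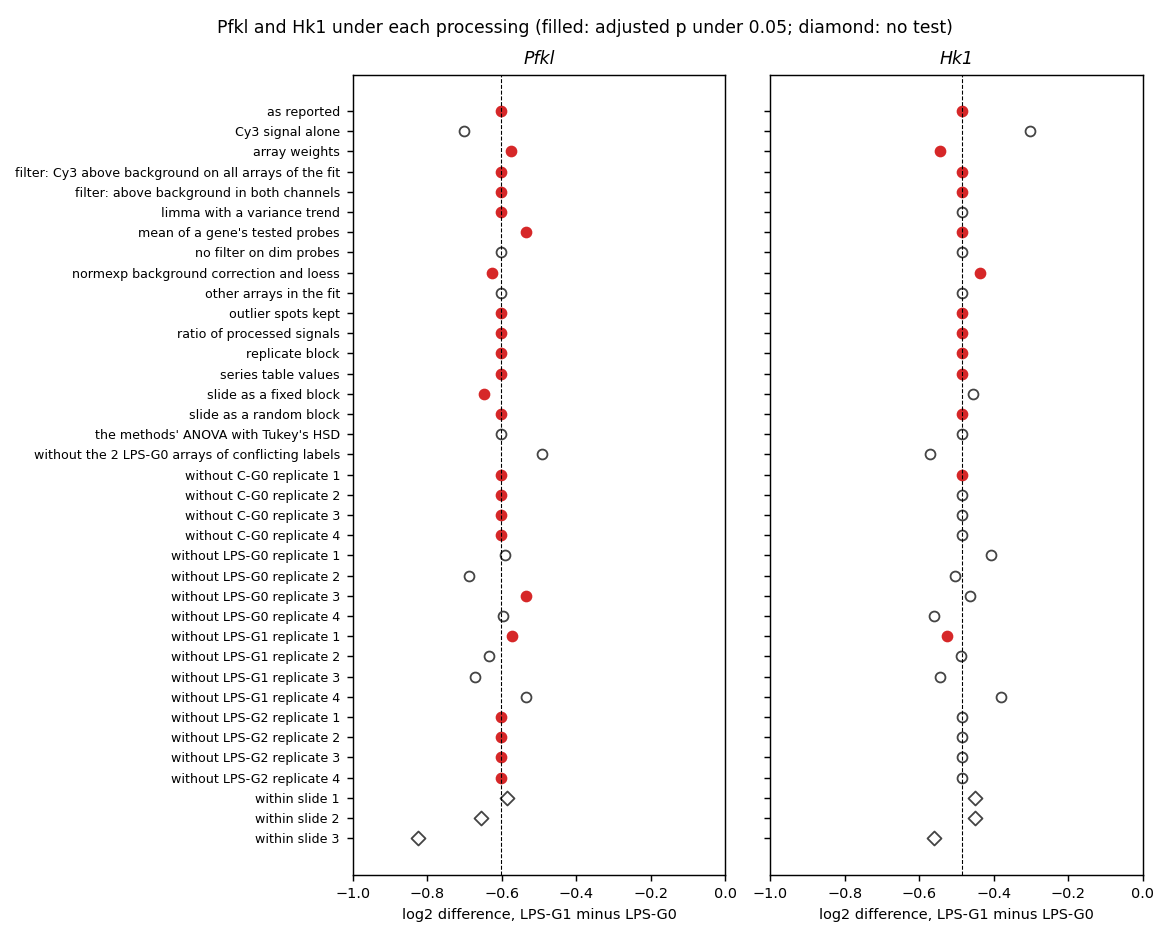
Log2 difference LPS-G1 minus LPS-G0 (x axis) of Pfkl and Hk1 under each way of processing (y axis), filled where the adjusted p was under 0.05 in a model over all probes; diamonds are differences within 1 slide, with no test. Every point lies below 0, in 36 of 36 settings for either gene, and many are not filled. Points that only leave out arrays or stay within 1 slide could not lie elsewhere, because all LPS-G1 rats lay below all LPS-G0 rats.

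Markers of erythroid cells were set beside these values. The mean log2 ratio of the 8 tested erythroid genes was 0.19, 0.17, 0.13 and 0.03 in the LPS-G0 rats and 0.00, -0.70, 0.07 and -0.13 in the LPS-G1 rats. The groups overlapped, and LPS-G1 replicate 2 lay apart: the difference of these means was -0.32 on the log2 scale with it and -0.15 without it, a check chosen after the data were seen. Of the 8, Epb42 of the red cell membrane skeleton passed as lower, by -0.93 (adjusted p = 0.0410, limma), and none as higher, against 8.39% and 0.543% of all probes. The median difference was -0.26, against 0.06 over all probes, and 0 of the 9 on the array was below background on every array. Hbb, the beta chain of hemoglobin, read 0.16 (SE 0.20) and Alas2, which starts heme synthesis in red cells, 0.02 (SE 0.17). The 1 tested heart muscle marker, Actc1, was lower too, by -0.56 (adjusted p = 0.0307, limma), and 2 of the 7 were at background on every array. In the other blood cell lists 0 genes passed after adjustment in limma. Their median differences were 0.30 (neutrophil), 0.13 (monocyte), -0.08 (platelet), 0.12 (T cell), -0.12 (natural killer) and 0.49 (B cell). At an unadjusted p under 0.05, 1 of 5 monocyte genes was higher and 2 of 7 platelet genes were lower, against 26.9% of all probes. The part of any of these markers in the differences of Pfkl and Hk1 was not tested.

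The other 6 genes did not pass between LPS-G1 and LPS-G0, and their groups overlapped. Pgk1 was 0.30 higher (95% interval -0.07 to 0.66) and Eno1 0.18 higher (-0.12 to 0.48). Gpi, Gapdh and Ldha differed by 0.14, 0.05 and 0.06, and Aldoa by -0.16. The intervals of these 6 genes reach from -0.51 to 0.66, so that no change above 1.58-fold lay within any of them. Gapdh, which the study used as the reference gene of its real-time PCR, had an interval of -0.31 to 0.41 in this comparison.

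**Figure D2:**
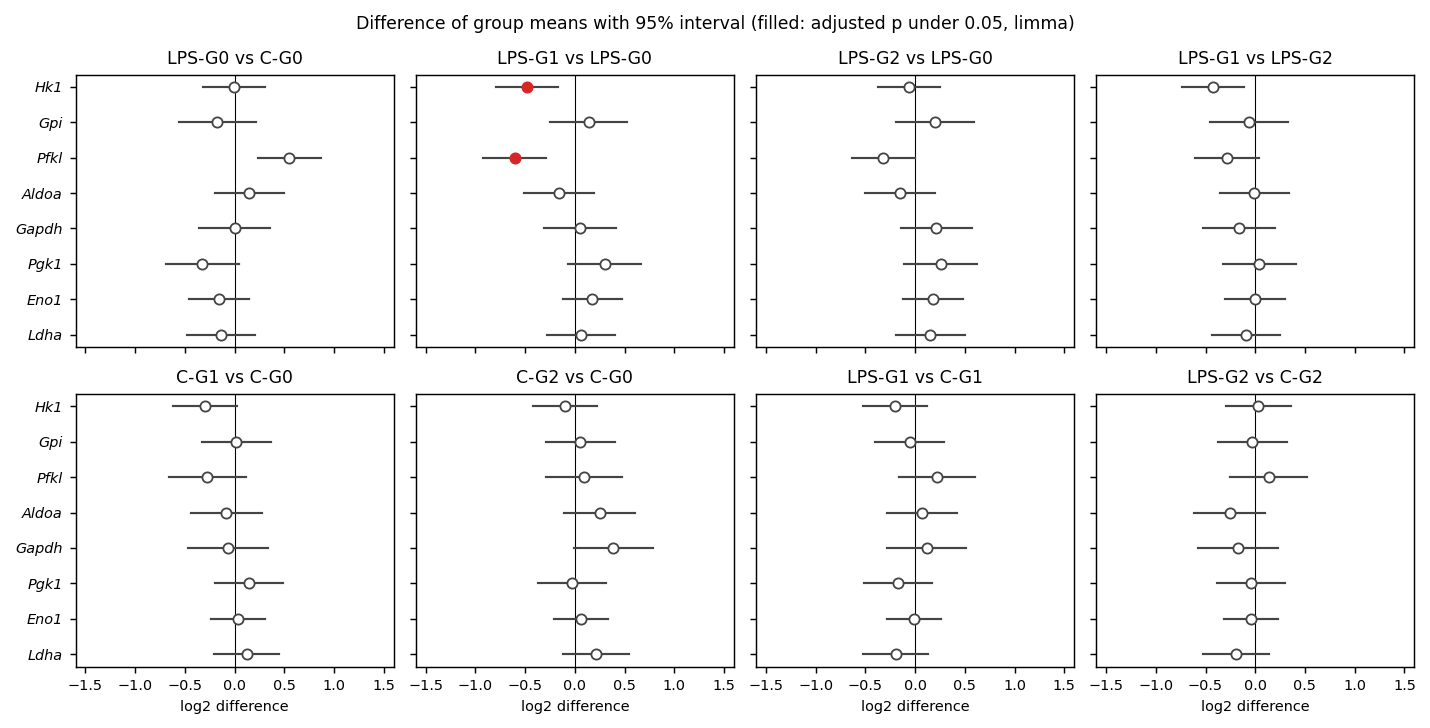
Log2 difference of group means (x axis) with 95% intervals from limma for the 8 tested glycolysis genes (y axis) in 8 comparisons; filled points passed an adjusted p under 0.05. Hk1 and Pfkl in LPS-G1 vs. LPS-G0 are the filled ones, at -0.48 and -0.60.

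After LPS on the plain diet (LPS-G0 vs. C-G0), 0 of the 8 genes passed, with 0.0097% of all probes passing. At an unadjusted p under 0.05 it was 1 of the 8, Pfkl, against 15.2% of all probes. Pfkl read -0.05, -0.57, -0.23 and -0.19 in C-G0, and each of these lay below the lowest LPS-G0 rat, a separation that 5.04% of all probes showed. The difference was 0.55 (SE 0.15, 95% interval 0.23 to 0.86) with an unadjusted p of 0.00207 and an adjusted p of 0.218 in limma. The other Pfkl probe gave 0.46 (SE 0.18, adjusted p = 0.255, limma). The difference passed without C-G0 replicate 1, at 0.62 (adjusted p = 0.0192, limma), and with array weights, at 0.61 (adjusted p = 0.0194), and it was 0.44 without the LPS-G0 replicates of conflicting labels. In the same comparison all 5 tested genes of the 6 natural killer cell markers were higher at an unadjusted p under 0.05 (0.67 to 1.35, median 0.87), and 3 of the 5 tested of the 12 neutrophil markers were lower (all 5 between -0.73 and -0.34, median -0.55). None of them passed after adjustment in limma. The mean of the tested natural killer genes ranged from -1.68 to -0.02 in C-G0 and from -0.10 to 0.59 in LPS-G0, and that of the neutrophil genes from -0.13 to 0.28 and from -0.65 to -0.14. Of these lists, 1 neutrophil gene, Ltf, was not well above background on any array. Their part in the difference of Pfkl was not tested.

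The remaining genes did not pass between LPS-G0 and C-G0. Pgk1 read -0.17, 0.16, -0.23 and 0.13 in C-G0 and -0.05, -0.65, -0.22 and -0.49 in LPS-G0, a difference of -0.32 (95% interval -0.69 to 0.04) with overlapping groups. Gpi, Eno1 and Ldha were 0.17, 0.16 and 0.14 lower with intervals that hold 0, and Aldoa 0.15 higher. Hk1 (-0.01, interval -0.32 to 0.30) and Gapdh (0.00, interval -0.36 to 0.36) lay near 0. LPS-G0 had the lowest group mean of the 6 for Gpi, Pgk1, Eno1 and Ldha and the highest for Pfkl. For Eno1 this held for the main probe only, and the other tested Eno1 probe was lowest in C-G1 (-0.11).

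With the low-molecular-weight beta-glucan (LPS-G2 vs. LPS-G0) 0 of the 8 genes and 0% of all probes passed, while 8.23% of all probes and 1 of the 8 genes were under an unadjusted p of 0.05. That gene was Pfkl. Its ratios in LPS-G2 were 0.06, 0.03, -0.01 and -0.20, between those of the other LPS groups and overlapping LPS-G0. The difference was -0.32 (95% interval -0.64 to -0.0017, unadjusted p = 0.0489, adjusted p = 0.597, limma). Of the 5 tested neutrophil markers, 4 were higher in LPS-G2 at an unadjusted p under 0.05 (all 5 between 0.38 and 0.92, median 0.65) and 0 passed after adjustment in limma. Their mean ranged from -0.20 to 0.74 in LPS-G2, and its part in the difference of Pfkl was not tested. Hk1 differed by -0.06 (interval -0.37 to 0.25), with 0.01, -0.24, -0.05 and -0.02 in LPS-G2. The intervals of the 8 genes reached from -0.64 to 0.62.

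The 2 beta-glucans, which differ in molecular weight, were compared directly in rats with LPS (LPS-G1 vs. LPS-G2). Again 0 of the 8 genes and 0% of all probes passed, with 1 of the 8 and 6.68% of all probes under an unadjusted 0.05. Hk1, the one gene, was lower in all 4 LPS-G1 rats than in any LPS-G2 rat, and 6.65% of all probes had groups that do not overlap. It differed by -0.42 (SE 0.15, 95% interval -0.73 to -0.11, unadjusted p = 0.0109, adjusted p = 0.679, limma). Pfkl differed by -0.28 with an interval of -0.60 to 0.03. For the other 6 genes the intervals reached from -0.52 to 0.41. The widest interval of these 6 had a half-width of 0.39, so these data do not show that the preparations act alike.

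**Figure D3:**
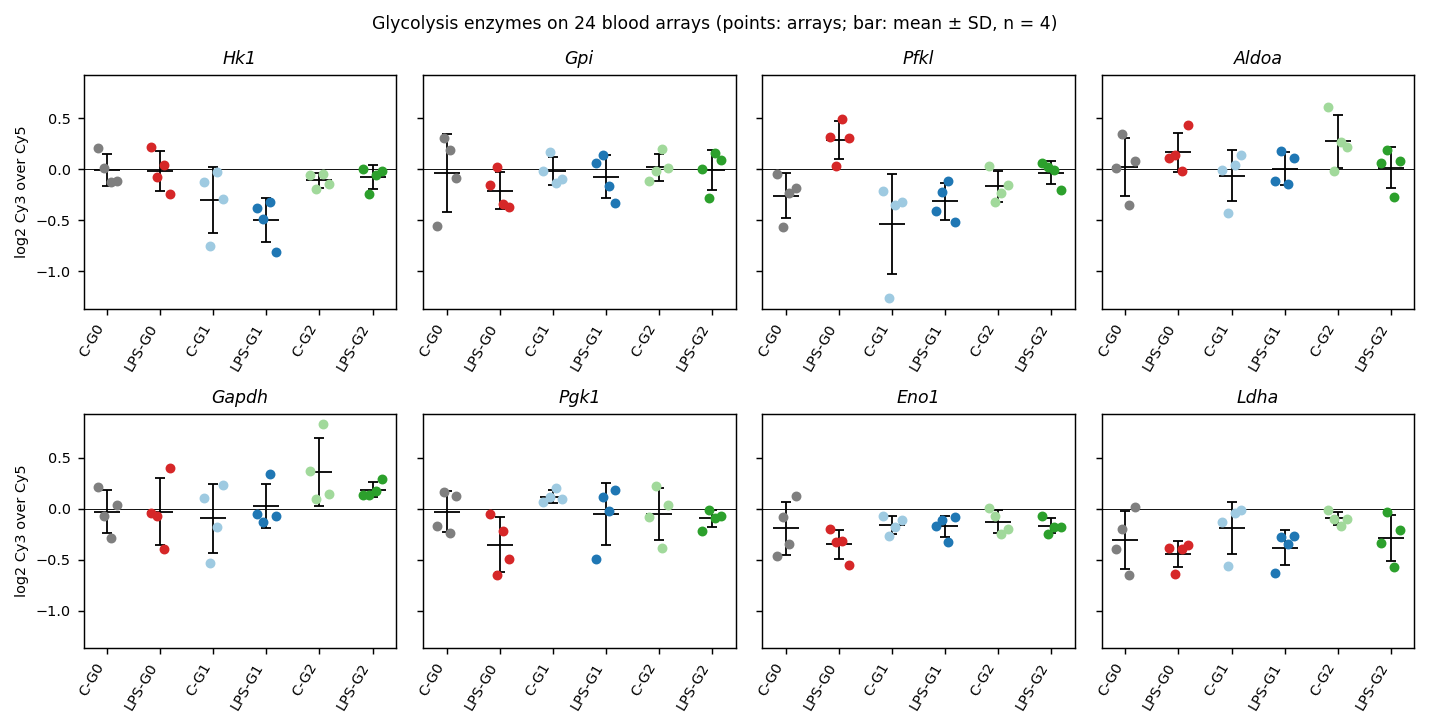
Log2 Cy3 over Cy5 ratio (y axis) of the main probe of each tested glycolysis gene on every array, by group (x axis), with mean ± SD of 4. Pfkl lies above 0 in all LPS-G0 rats, and a single C-G1 rat reads -1.26 for Pfkl and -0.76 for Hk1.

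In rats without LPS, 0 of the 8 genes passed between C-G1 and C-G0 (0.028% of all probes passed), between C-G2 and C-G0 (0.028%) or between C-G1 and C-G2 (0%). At an unadjusted p under 0.05 the counts in limma were 0, 0 and 1 of the 8, against 27.9%, 13.3% and 15.4% of all probes. One rat, C-G1 replicate 2, read -1.26 for Pfkl where the other C-G1 rats read -0.21, -0.35 and -0.32. The same rat read -0.76 for Hk1, against -0.13, -0.02 and -0.29 in the others, and its erythroid list mean of -1.32 was the lowest of all arrays. With it, Pfkl differed by -0.28 and Hk1 by -0.29 between C-G1 and C-G0. Without it the differences were -0.03 and -0.14. Its removal also took the difference of Pfkl between LPS-G1 and C-G1 from 0.22 to -0.02, that of Hk1 from -0.20 to -0.35, and that of Pfkl between C-G1 and C-G2 from -0.37 to -0.13. Between C-G1 and C-G0, 5 of the 8 tested erythroid genes were lower at an unadjusted p under 0.05 (median of the 8 -1.05). After adjustment in limma 0 of them passed. The erythroid list mean ranged from -1.32 to -0.13 in C-G1 and from -0.08 to 0.49 in C-G0. Its part in the values of Pfkl and Hk1 was not tested.

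Gapdh read 0.37, 0.10, 0.83 and 0.14 in C-G2 and 0.21, -0.08, -0.29 and 0.04 in C-G0. The difference was 0.39 (95% interval -0.01 to 0.79, unadjusted p = 0.0571, adjusted p = 0.392, limma), and the other Gapdh probes gave 0.44 and 0.33. Against C-G1 the C-G2 rats were higher by 0.45 in Gapdh (first minus second -0.45, interval -0.85 to -0.05, unadjusted p = 0.0284, adjusted p = 0.323). Without C-G2 replicate 3, the rat at 0.83, these differences were 0.23 and -0.30. C-G2 had the highest group mean for Gpi, Aldoa, Gapdh, Eno1 and Ldha, and in each case its arrays overlapped those of the next group.

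LPS on the beta-glucan diets was followed by no called gene either. Between LPS-G1 and C-G1, 0.00934% of all probes passed (2.81% unadjusted, with 0 of the 8) and the intervals of the 8 genes reached from -0.52 to 0.61. Between LPS-G2 and C-G2, 0% passed (1.09% unadjusted, with 0 of the 8) and they reached from -0.61 to 0.52. Over the 3 diets together, where 0.0187% of all probes passed (9.61% unadjusted, with 1 of the 8), LPS rats were 0.30 higher in Pfkl (95% interval 0.08 to 0.52, unadjusted p = 0.0104, adjusted p = 0.516, limma). The LPS effect on Pfkl was 0.33 smaller on G1 than on the plain diet (first minus second -0.33, interval -0.87 to 0.22) and 0.41 smaller on G2 (-0.41, interval -0.96 to 0.14). Without C-G1 replicate 2 the value for G1 was -0.57 (adjusted p = 0.874, limma). A difference in the LPS effect between diets was not detected, with 0% of all probes passing either test (3.01% and 5.57% unadjusted, with 0 of the 8 in both). These comparisons share control arrays with those above. In the F test over the 6 groups, which 0.00934% of all probes passed (23.3% unadjusted, with 2 of the 8), Pfkl had an adjusted p of 0.119 and Hk1 of 0.168.

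Gpi, Aldoa, Eno1 and Ldha did not pass in any comparison. Gpi had group means from -0.21 ± 0.18 (SD, n = 4) in LPS-G0 to 0.02 ± 0.13 in C-G2, and its lowest array, at -0.55, and its highest, at 0.30, were both in C-G0. Aldoa ran from -0.06 ± 0.25 in C-G1 to 0.27 ± 0.26 in C-G2, where single rats read 0.61, -0.01, 0.27 and 0.22. Eno1 ran from -0.35 ± 0.15 in LPS-G0 to -0.13 ± 0.12 in C-G2. Ldha ran from -0.44 ± 0.13 in LPS-G0 to -0.10 ± 0.06 in C-G2.

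The order of the 6 group means separated few neighbors. For Pfkl it ran from C-G1 (-0.54 ± 0.49, SD, n = 4) over LPS-G1 (-0.31 ± 0.18), C-G0 (-0.26 ± 0.22), C-G2 (-0.17 ± 0.15) and LPS-G2 (-0.03 ± 0.12) to LPS-G0 (0.29 ± 0.19). Only the last gap, of 0.32, was larger than the SD of both neighbors, and even there 1 LPS-G0 rat lay within the range of LPS-G2. For Hk1 it ran from LPS-G1 (-0.50 ± 0.22) and C-G1 (-0.30 ± 0.32) to C-G2 (-0.11 ± 0.07), LPS-G2 (-0.08 ± 0.11), LPS-G0 (-0.01 ± 0.19) and C-G0 (-0.01 ± 0.15), with no gap above the SD. For Gpi, Aldoa, Gapdh, Pgk1, Eno1 and Ldha no neighboring means differed by more than the larger SD, and the group means of a gene spanned between 0.22 (Eno1) and 0.47 (Pgk1).

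Rat-to-rat values were also compared between genes. After each group's mean was taken away, 28 pairs of genes were compared over the 24 arrays, and 18 of them correlated above 0. The highest was that of Aldoa and Ldha, with Pearson's r = 0.73 (permutation p = 0.00063, adjusted over the 28 pairs 0.0176) and Spearman's rho = 0.79 (permutation p = 4e-05, adjusted 0.00112). Without the 2 arrays farthest from the median of Aldoa it was 0.69, and within the slides it was 0.73, 0.86 and 0.75. The next but one pair was Pgk1 and Ldha, with r = 0.54 (permutation p = 0.00252, adjusted 0.0353) and rho = 0.54 (permutation p = 0.00827, adjusted 0.116), and 0.42 without the 2 farthest arrays.

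Hk1 and Pfkl, the pair that was lower in LPS-G1, ranked between these pairs with r = 0.66 (permutation p = 0.0248, adjusted 0.173) and rho = 0.50 (permutation p = 0.0347, adjusted 0.243). This relation rested on few arrays: without the 2 farthest in Hk1, r was 0.37, and within the slides it was 0.66, 0.87 and 0.25. At the other end were Gpi and Pfkl (r = -0.48, permutation p = 0.0129, adjusted 0.120, rho = -0.50), Gpi and Ldha (r = -0.43, permutation p = 0.121, adjusted 0.366, rho = -0.46) and Gapdh and Pgk1 (r = -0.33, permutation p = 0.181, adjusted 0.422, rho = -0.37). Without the 2 farthest arrays these were -0.46, -0.59 and -0.24. Within the slides Gpi and Pfkl gave -0.75, -0.46 and 0.03.

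**Figure D4:**
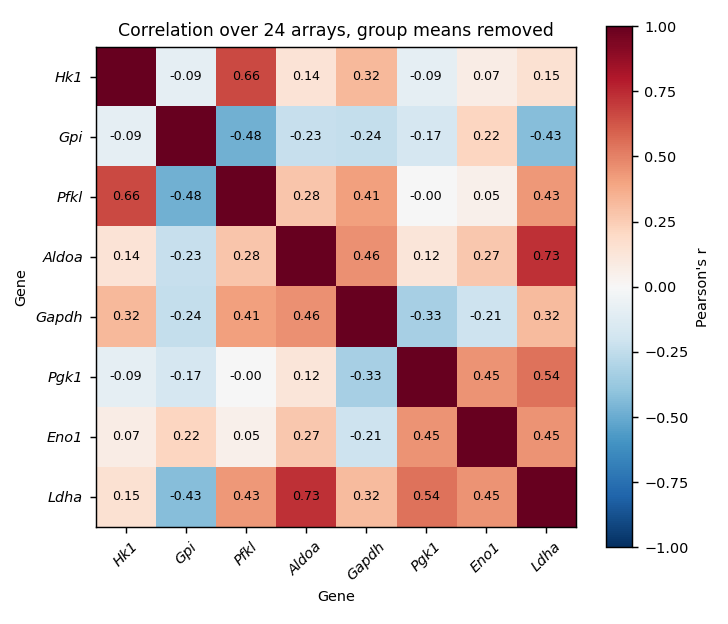
Pearson's r of each pair of tested glycolysis genes (both axes) over 24 arrays after removal of group means, on a color scale from -1 to 1. The highest off-diagonal value is 0.73, for Aldoa and Ldha, and the lowest is -0.48, for Gpi and Pfkl.

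Probes of one gene were compared in the same way. The 3 Gapdh probes followed each other closely, with r of 0.94, 0.94 and 0.81 over the 24 arrays. The 2 Pfkl probes had r = 0.28 once group means were removed (permutation p = 0.196, rho = 0.18), and r = 0.60 with them. The Eno1 probes had r = 0.27 (permutation p = 0.206, rho = 0.36). In LPS-G1 vs. LPS-G0 the Eno1 probes gave 0.18 and -0.08, opposite in sign, and both intervals hold 0. Another probe named Eno1 lies at chr10:53300221-53300280, away from the Eno1 probes on chromosome 5, and was well above background in Cy3 on 13 of 24 arrays and not tested.

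Pfkl and Hk1 were also set against the marker lists, each of the 8 genes with 7 lists, 56 relations in all. With the erythroid mean, Pfkl had r = 0.60 (permutation p = 0.0637, adjusted 0.344, rho = 0.41) and Hk1 r = 0.52 (permutation p = 0.0981, adjusted 0.344, rho = 0.43). Without the 2 arrays farthest in the erythroid mean they were 0.38 and 0.36. Gapdh, which did not pass, also had r = 0.62 with the erythroid mean (permutation p = 0.0065, adjusted 0.105). With the platelet list Pfkl had r = 0.59 and Hk1 0.36 (permutation p = 0.0956 and 0.31). With the T cell list they had r = -0.42 and -0.42 (permutation p = 0.0585 and 0.0498, adjusted 0.344 for both). The highest of the 56 was Gpi with the B cell list (r = 0.73, permutation p = 0.00353, adjusted 0.0988, rho = 0.63), and 0 of the 56 were under an adjusted 0.05. Gapdh with the platelet list had r = 0.63 (permutation p = 0.00286, adjusted 0.0988, rho = 0.47). Without the 2 farthest arrays these were 0.71 and 0.48.

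Of 31 further genes of the pathway and its supply, 30 were on the array and 16 could be tested. In LPS-G1 vs. LPS-G0, 0 of the 16 passed as higher and 1 as lower, against 0.543% and 8.39% of all probes. That gene was Eno2, the enolase known from neurons, which differed by -0.74 (SE 0.18, adjusted p = 0.0289, limma). Its mean log2 ratio was -0.16, -0.91 and -0.32 for C-G0, C-G1 and C-G2, and with LPS 0.25 on the plain diet, -0.49 on G1 and -0.12 on G2. The lactate carrier Slc16a1 differed by 0.97 (SE 0.30, adjusted p = 0.0521) and is named here after its value was seen. Its mean log2 ratio without LPS was 0.68 for C-G0, -0.60 for C-G1 and -1.21 for C-G2. With LPS it was -0.61 for LPS-G0, 0.35 for LPS-G1 and -0.41 for LPS-G2, so that C-G0 and LPS-G1 were the high groups. Of the 24 arrays, 15 measured it well above background. Its probe may have passed the filter only through a group where it was high, and its low ratios may lie near background. Tpi1, which follows aldolase, and Pkm, which follows enolase, differed by 0.05 and 0.03 with SE of 0.16 and 0.20. The phosphofructokinase genes Pfkm and Pfkp, named here beside Pfkl, had means of -0.24 and -0.34 in LPS-G0. In LPS-G1 their means were higher, at -0.08 and -0.10, unlike Pfkl, and neither gene passed. The median of the 16 genes was 0.02, against 0.06 over all probes. In all the other comparisons 0 of the 16 passed.

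Promoter sequences were read from RefSeq (assembly GRCr8) for 9 of the 10 genes, 13 starts in all. The 250 bases before each start of Pfkl and Hk1 are printed because these genes passed the test together, with any ACGTG or GCGTG on either strand in capitals, the core letters bound by hypoxia-inducible factor. The spans are chr20:10663715-10663964 on the plus strand for Pfkl, and chr20:30874815-30875064 and chr20:30842073-30842322 on the minus strand for Hk1.
Pfkl: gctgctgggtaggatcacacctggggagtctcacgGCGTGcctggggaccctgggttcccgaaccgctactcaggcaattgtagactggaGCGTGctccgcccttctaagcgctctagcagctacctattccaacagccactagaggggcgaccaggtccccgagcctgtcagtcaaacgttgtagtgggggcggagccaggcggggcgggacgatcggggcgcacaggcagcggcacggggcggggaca
Hk1, start 1: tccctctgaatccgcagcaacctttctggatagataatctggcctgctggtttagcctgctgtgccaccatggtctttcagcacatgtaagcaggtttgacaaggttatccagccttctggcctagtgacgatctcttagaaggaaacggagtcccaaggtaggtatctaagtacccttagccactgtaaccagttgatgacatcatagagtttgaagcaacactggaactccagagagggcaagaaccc
Hk1, start 2: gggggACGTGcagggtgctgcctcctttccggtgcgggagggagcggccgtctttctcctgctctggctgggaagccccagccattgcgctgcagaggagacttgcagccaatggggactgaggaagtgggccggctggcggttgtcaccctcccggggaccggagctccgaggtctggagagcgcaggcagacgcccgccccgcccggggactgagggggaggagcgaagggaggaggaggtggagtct
Pfkl holds GCGTG in 2 places and start 2 of Hk1 holds ACGTG once, while start 1 has neither. Of all 33469 promoter windows of this length, 36.7% hold at least one of these motifs, and 7 of the 9 genes do in at least 1 window, some of them with several starts. The first is a share of windows and the second of genes, and an excess was not tested. The GC share was 66.0% for Pfkl and 48.8% and 70.0% for Hk1 starts 1 and 2, against a median of 51.2% over all windows. The GC box GGGCGG (either strand) occurs 4 times in Pfkl and 2 times in start 2 of Hk1, and 30.5% of all windows hold it. AGATAA, letters that GATA factors bind, occurs once, in start 1 of Hk1, and 10.3% of all windows hold it. Ldha holds the most ACGTG, with 3 matches over both strands, where its 1 CACGTG, which reads the same on both, counts on each. A match is a string of letters and not a measured binding site.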

How the data were processed

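Blood RNA of 24 rats, 4 in each of 6 groups by the sample titles, was hybridized with a common reference RNA to Agilent two-color SurePrint G3 arrays for rat. By the file headers, the deposited intensity values of both channels were background-subtracted and Lowess-normalized in Agilent Feature Extraction, and the deposited log10 values are the ratio of Cy5 over Cy3. The submitters' processing notes name version 10.7.3.1, and the file headers another one. All 1511424 log10 values deposited for the whole series equal those of the single arrays. Labels call the reference a pool of all rats, and the methods a pool of rats that were not hybridized singly.

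The log ratio was turned to log2 Cy3 over Cy5, outlier spots were left out and spots of a probe averaged. A probe entered a test if some group had it well above background in Cy3 on each of its 4 arrays. That kept 10313 of 30367 probes for the 16 arrays of the LPS groups and C-G0, and 10708 for all 24. The depth is that of the arrays: their number limits the precision, and the half-width of a 95% interval for a difference of 2 groups was between 0.27 and 0.40 for the 8 genes. A gene was named for each of the 10 symbols, by its probe of highest mean Cy3 signal, and other pathway genes where they were called or are the next step. The exceptions were Slc16a1, named after its value was seen, and Pfkm and Pfkp, named beside Pfkl with the results known. Differences were tested with limma 3.58.1 in R 4.3.3, the 16 arrays together for comparisons among the 4 groups and all 24 for the rest, with p adjusted by Benjamini-Hochberg over all probes tested. Single genes were also tested by exact permutation of 8 arrays (70 arrangements). Correlations used numpy 2.4.6 in Python 3.11.15 with 100000 permutations within groups. The fit was tested on simulated data. Alternatives changed the background correction, scale, channel, filter, slide, weights, arrays and test. The members and gene lists were chosen with earlier results of these data known. Replicates are single rats by the methods.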

Additional observations from a re-analysis of the deposited data

Results flagged for a closer look

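In 48 groups of 4 arrays (8 genes in 6 groups), 3 held a single array far from the other 3, and chance alone would give about 2.4. Pfkl in C-G1 replicate 2 read -1.26, where the others were between -0.35 and -0.21. Gapdh in LPS-G1 replicate 3 read 0.34, where the others were between -0.13 and -0.06. Ldha in LPS-G0 replicate 2 read -0.64, where the others were between -0.40 and -0.35.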

How the results depend on the processing

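In LPS-G1 vs. LPS-G0, 2 of the 8 genes passed. This count became 1 with slide as a fixed block and with a variance trend (Pfkl in both), and 0 with the Cy3 signal alone, with no filter on dim probes, with all 24 arrays in the fit, without the LPS-G0 replicates of conflicting labels and in the methods' ANOVA. Leaving out 1 array at a time gave 0 to 2. The probes passing went from 921 to 336 with slide as a fixed block, 2844 with array weights, 3 with all 24 arrays, 1 in the ANOVA, 0 with Cy3 alone, no filter or without the conflicting labels, and 0 to 1941 without 1 array. Of probes under an unadjusted 0.05, 71.8% were lower, and 62.1% with Cy3 alone. In LPS-G0 vs. C-G0 the count of genes went from 0 to 1 (Pfkl) with array weights, where the probes passing went from 1 to 1142, and from 0 to 1 on leaving out 1 array (C-G0 replicate 1, 1140 probes). In the F test it became 1 (Pfkl, adjusted p = 0.0288, limma) with the replicate block, with 1319 probes in place of 1. The labels name nothing that rats of the same replicate number share, so the numbers were not taken as pairs. Same-numbered arrays of different groups correlated at 0.111 on average over 60 pairs, of which 28 were above 0.1. Differently numbered arrays of different groups correlated at -0.038 over 180 pairs, of which 49 were above 0.1. Whether the numbers stand for something shared was not tested. With the replicate block, LPS-G1 vs. LPS-G0 kept its 2 genes, with 1269 probes passing. In C-G1 vs. C-G0 and C-G2 vs. C-G0 this block took the probes passing from 3 to 600 and 43, with 0 of the 8 genes. Without C-G0 replicate 4 these were 963 and 353, again with 0 of the 8, and 144 in the F test. In the other comparisons between 0 and 4 probes passed in each alternative run. No called difference reversed, which was fixed in advance for the runs that only left out arrays or stayed within 1 slide. Over all alternatives, 3800 differences of single genes kept their call or, where there was none, stayed within 1 SD of their value, 32 lost the call, 2 gained one and 102 without a call moved by more than 1 SD, most of them differences within 1 slide. The cause of these changes was not tested. Only 4 arrays a group and dim Hk2 and Hk3 limit what can be seen.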
